A study of Mus musculus with 12 samples.

Results

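Genes that mark pericytes and vascular smooth muscle, the mural cells wrapped around blood vessels, were followed in 12 subcutaneous Lewis lung carcinoma (LLC, a mouse lung cancer line) tumors. The 10 genes, Rgs5, Mcam, Cspg4, Abcc9, Kcnj8, Notch3, Acta2, Myh11, Cnn1 and Des, were chosen by name as mural cell markers, out of 18193 genes with a probe set on the array. They were chosen with earlier results of these data known, so the shares of all genes beside their counts are a description and not a test. A gene's value is that of its brightest probe set, among those paired with a single gene symbol, and all 10 genes had at least 1. Each tumor was hybridised to its own Affymetrix array, with RNA from whole tumors taken on day 19 from female C57BL/6 mice that were 6 to 8 weeks old when the cells were injected into the flank. There were 4 treatments of 3 tumors each, begun at a tumor volume of 60 to 80 mm3. The 1D11_radiation tumors received 1D11, an antibody that neutralizes TGF-beta, with radiation. The 1D11 tumors received 1D11 without radiation. Radiation tumors were irradiated under 13C4, the isotype control antibody, and control tumors received 13C4 without radiation. Radiation is given as 5 fractions of 6 Gy in the sample characteristics and as 2 Gy in the sample descriptions. All 12 tumors grew from the same transplanted line in hosts that supply the vessels, and the sample descriptions call the material cells although the other fields call it tumor tissue. The labels do not say whether the 3 samples of a group came from 3 mice, so the p-values measure the spread between these samples.

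Pericytes sit on capillaries and venules, smooth muscle cells on arteries and arterioles, and both stabilise the endothelial tube beneath them. Endothelial PDGF-B, acting on the receptor Pdgfrb, recruits pericytes, and Notch3 signalling maintains the arterial smooth muscle state. TGF-beta is a known inducer of the contractile genes Acta2, Tagln and Cnn1 in cultured mural cells and fibroblasts. Some of the 10 markers are not exclusive to mural cells: Des is also the intermediate filament of skeletal muscle, Acta2 marks myofibroblasts, and Cspg4 and Mcam occur on tumor cells of several kinds.

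Values are given as log2 intensity, on which 1 unit is a 2-fold step. Over the 12 tumors Acta2 was the brightest member, with a mean of 10.69, followed by Rgs5 at 8.64, Des at 8.01 and Mcam at 7.96. Cspg4 (6.82), Abcc9 (6.77), Notch3 (6.56) and Kcnj8 (6.10) were intermediate. Myh11 (5.02) and Cnn1 (4.99), the most smooth muscle-restricted members, fell among the dimmest 30% of genes, below 5.37, and were not tested. Brightness depends on the probe as well as on the amount of RNA, so this order is a description of the signals and not a ranking of transcript amounts. The other 8 members had means above that cut, while Myh11 and Cnn1 were dim in 11 of the 12 tumors. These signals do not say which cells the RNA came from.

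The exception was control replicate 1. Myh11, the smooth muscle myosin heavy chain, was at 7.11 in that tumor, against 4.61 to 5.06 in the other 11, which is 4.12-fold above the highest of them. Cnn1, an actin-binding protein of smooth muscle, was at 6.62 there against 4.63 to 5.00 elsewhere. Acta2, smooth muscle actin, reached 11.55 against 10.31 to 10.87, and Des reached 9.35 against 7.19 to 8.66. Thus all 4 contractile and cytoskeletal members were highest in the same tumor.

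**Figure D1:**
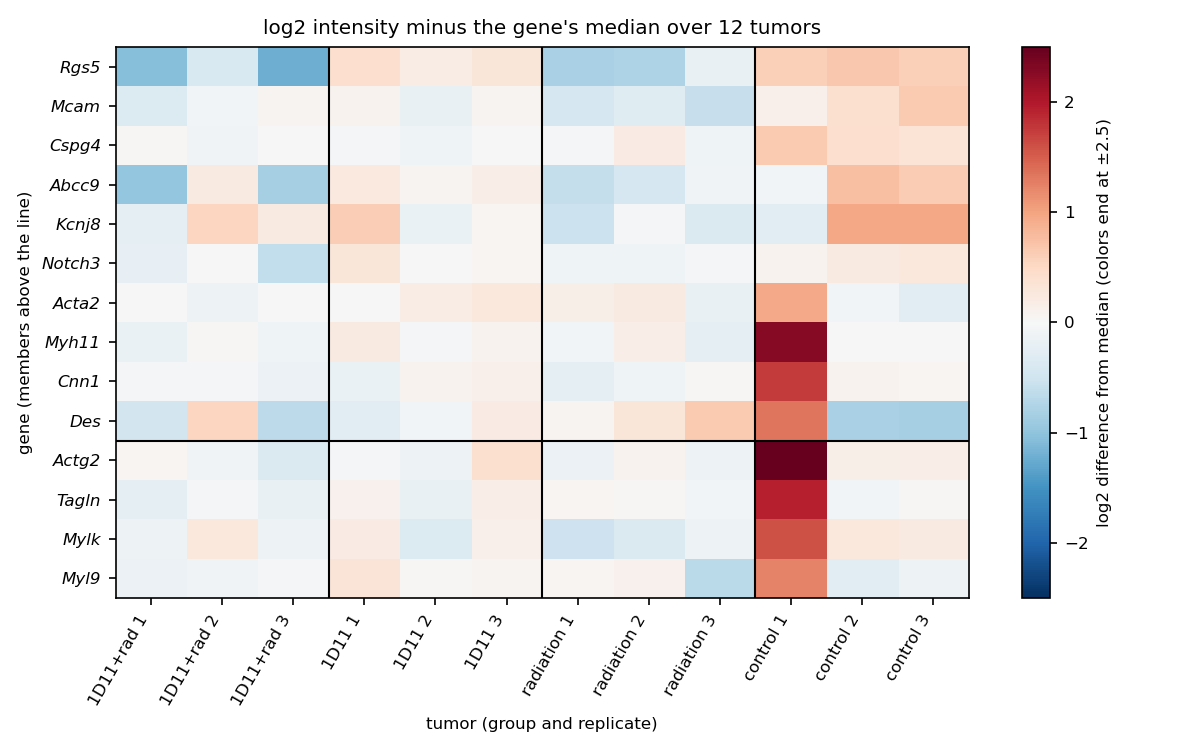
Each cell is the log2 intensity of a gene (rows) in a tumor (columns) minus that gene's median over the 12 tumors, with the 10 markers above the horizontal line and 4 further contractile genes below it. Myh11, Cnn1, Des and the 4 further genes are red in control replicate 1, and Rgs5 is blue in all 6 irradiated tumors.

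Many but not all other genes of the contractile apparatus were high in that tumor too. Of the 14 tested on a list of such genes, 7 were highest in control replicate 1, against 16.1% of all genes tested. Another 3, Tpm2, Pdlim7 and Mrtfa, were lowest of the 12 tumors there, at 11.50, 9.70 and 8.50, against 15.8% of all genes tested. Smooth muscle gamma-actin, Actg2, was at 8.39 there and 4.76 to 5.54 in the other 11 tumors. The actin-bundling protein gene Tagln was at 9.02 against 6.85 to 7.24, and Mylk, the myosin light chain kinase, at 8.99 against 6.87 to 7.65 (Actg2, Mylk and Mrtfa are named here after their values were seen). The same tumor had a skeletal muscle score of 1.13, where the score is the mean of 17 markers' log2 values after centring over the 12 arrays. Radiation replicate 3 had the highest skeletal muscle score, 1.91, and there Myh11 was at 4.61 and Actg2 at 5.01. The keratinocyte score of control replicate 1 was -0.45, the lowest of the 12, and its array weight was 0.297, also the lowest. Because that tumor is 1 of only 3 controls, values without it are given beside many of the comparisons that it moves.

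Acta2 transcription is driven in smooth muscle by serum response factor, which binds the CArG box. The promoter is printed because its gene is the brightest of the markers and because the contractile members were all highest in 1 tumor. In 300 bases around the annotated start (250 before and 50 after, RefSeq on GRCm38.p6), a CArG-like match, allowing 1 G or C in the central A/T stretch, was searched on both strands and is shown in capitals (chr19:34255324-34255623, minus strand):
Acta2: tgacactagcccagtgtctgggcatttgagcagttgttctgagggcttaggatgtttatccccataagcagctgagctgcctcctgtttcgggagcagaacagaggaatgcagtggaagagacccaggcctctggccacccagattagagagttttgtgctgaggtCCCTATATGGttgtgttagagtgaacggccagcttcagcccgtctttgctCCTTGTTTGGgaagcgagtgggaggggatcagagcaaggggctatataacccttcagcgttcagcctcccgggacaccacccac

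Both matches, CCCTATATGG at 84 to 75 bases and CCTTGTTTGG at 34 to 25 bases before the start, lie in Acta2, the 1 member with such a match among the 9 members whose promoter was in the table. These distances count from the start used for the window. The annotated Acta2 gene begins elsewhere in the window, at 34255585, so they are not distances from that end of the gene. In all, 9.98% of 32851 promoters of this length held a CArG-like match. The strict CArG box, with no G or C in the centre, was in 0 of the 9 and in 1.63% of all promoters. GTGGGAA, the site of the Notch partner Rbpj, searched on both strands, was in 0 of the 9 and in 6.38% of all. The relaxed form of the CArG box was searched after the strict form had given no match, and no match says only that these letters are not in these windows. The table held 9 of the 10 members, without Myh11. The promoter of Rgs5, the marker with the largest radiation change, is shown for comparison, with no capitals because it held none of these matches (chr1:169655251-169655550, plus strand):
Rgs5: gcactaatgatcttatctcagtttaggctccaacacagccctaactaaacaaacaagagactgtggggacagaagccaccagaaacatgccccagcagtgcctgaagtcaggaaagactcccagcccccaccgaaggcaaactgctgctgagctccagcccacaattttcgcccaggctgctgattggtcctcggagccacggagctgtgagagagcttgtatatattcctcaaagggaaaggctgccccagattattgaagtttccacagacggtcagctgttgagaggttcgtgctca

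Rgs5, Mcam and Cspg4 fell in irradiated tumors under the control antibody, and Rgs5 and Mcam fell over both antibodies. Over both antibodies means the 6 irradiated tumors relative to the 6 unirradiated ones, with the antibodies weighted equally. For Mcam that average holds changes of -0.83 under 13C4 and -0.10 under 1D11, where its groups overlapped. Neither of the contractile and cytoskeletal members tested, Acta2 and Des, passed. Of the 8 members tested, 3 were called between radiation and control tumors, all lower, at a limma adjusted p under 0.05 over 12735 genes, where 2.39% of all genes tested were called. The median log2 change of the 8 was -0.63, against -0.0015 for all genes. Values of 5 of the 8 lay wholly below the controls with no overlap, as did those of 10% of all genes tested. In whole-tumor RNA, fewer cells of a type and less RNA per cell cannot be told apart.

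**Figure D2:**
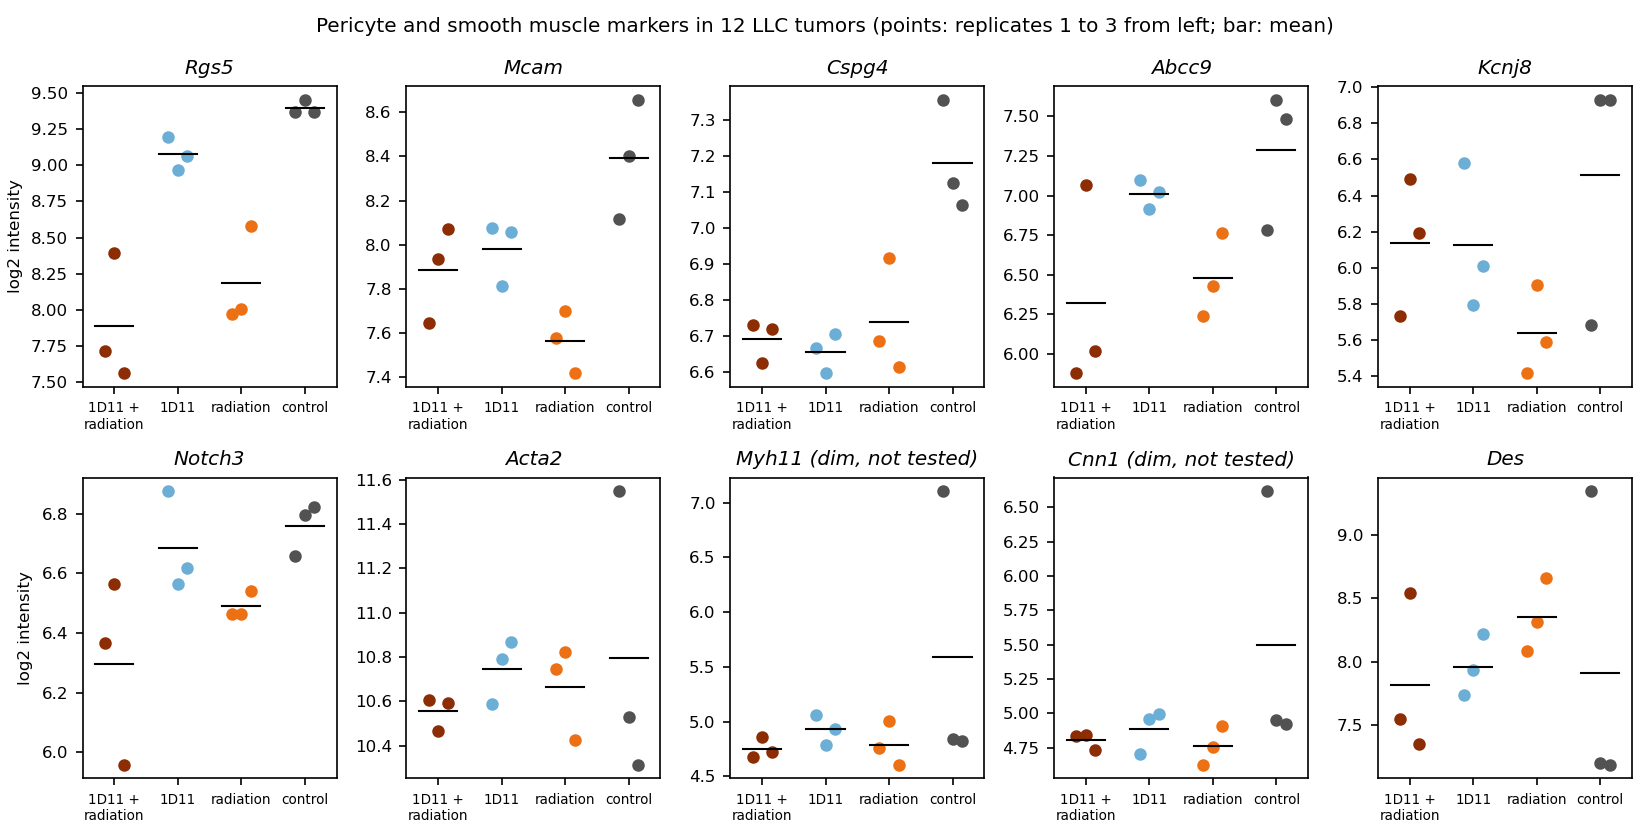
Log2 intensity (vertical axes, scaled per gene) of each of the 10 markers in the 12 tumors, with 3 points per group for replicates 1 to 3 and a bar for the group mean. Rgs5 lies at 7.56 to 8.58 in the 6 irradiated tumors and at 8.97 to 9.46 in the 6 unirradiated ones, and control replicate 1 is the single high point of Acta2, Myh11, Cnn1 and Des.

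Rgs5, a regulator that shortens G protein signalling and is a classic pericyte marker, was at 7.97, 8.01 and 8.58 in the radiation tumors, against 9.37, 9.46 and 9.37 in the controls. Under 1D11 it was at 7.71, 8.39 and 7.56 in 1D11_radiation tumors, against 9.20, 8.97 and 9.07 in 1D11 tumors. All 6 irradiated tumors lay below all 6 unirradiated ones. Rgs5 fell by 1.21 ± 0.20 (log2 change ± SE, n = 3 per group) in radiation tumors relative to controls, to 0.431-fold (limma adjusted p = 0.0188). Under 1D11 the change was nearly as large, -1.19 ± 0.20, at a limma adjusted p of 0.0568 that missed the threshold. It passed there without control replicate 1 (0.0311), radiation replicate 3 (0.0340) or 1D11_radiation replicate 2 (limma adjusted p = 0.0164, change -1.44). The interaction, which is the radiation effect under 1D11 minus that under 13C4, was 0.02 with a 95% interval of -0.61 to 0.66. Over both antibodies Rgs5 fell by 1.20 ± 0.14, to 0.435-fold (limma adjusted p = 0.00272). Its groups, from lowest to highest mean, were 1D11_radiation (7.89 ± 0.44, SD, n = 3), radiation (8.19 ± 0.34), 1D11 (9.08 ± 0.11) and control (9.40 ± 0.05). The ranges of 1D11_radiation and radiation tumors overlapped, and those of the other neighbours did not. The call against control was lost without radiation replicate 1 (-1.11, limma adjusted p = 0.0836) or radiation replicate 2 (-1.12, limma adjusted p = 0.0734). The fall over both antibodies passed whichever single tumor was left out.

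Mcam, or CD146, is an adhesion molecule of pericytes and endothelium. It was at 7.58, 7.70 and 7.42 in radiation tumors, against 8.12, 8.40 and 8.66 in controls. These groups did not overlap. Mcam was at 7.65, 7.93 and 8.07 in 1D11_radiation tumors, against 8.08, 7.81 and 8.06 in 1D11 tumors, and here the groups overlapped. Mcam fell by 0.83 ± 0.15 in radiation tumors relative to controls (limma adjusted p = 0.0223) and had a change of -0.10 ± 0.15 under 1D11 (limma adjusted p = 0.817, 95% interval -0.42 to 0.23). The interaction was 0.73 ± 0.21 (unadjusted p = 0.00497, limma adjusted p = 0.400), which did not pass over all genes. Over both antibodies Mcam fell by 0.46 ± 0.10 (limma adjusted p = 0.0246). The call against control ended without control replicate 2 (limma adjusted p = 0.0529), radiation replicate 1 (0.0850) or radiation replicate 2 (0.0575), at limma changes of -0.82, -0.83 and -0.89. That over both antibodies ended without 1D11 replicate 1 or 3, radiation replicate 1 or 1D11_radiation replicate 1, at limma adjusted p of 0.0530 to 0.0598.

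Cspg4, the NG2 proteoglycan of pericyte surfaces, stood apart from Rgs5 in its order of groups. It was at 6.69, 6.92 and 6.61 in radiation tumors, at 6.67, 6.60 and 6.71 in 1D11 tumors and at 6.73, 6.63 and 6.72 in 1D11_radiation tumors, against 7.36, 7.12 and 7.06 in controls. All 9 treated tumors thus lay below all 3 controls, and the 3 treated groups overlapped each other. Cspg4 fell by 0.44 ± 0.10 in radiation tumors relative to controls (limma adjusted p = 0.0396). It fell by 0.49 ± 0.10 in 1D11_radiation tumors relative to controls (limma adjusted p = 0.0307), and 1D11 alone gave -0.52 ± 0.10 (unadjusted p = 0.000175, limma adjusted p = 0.111). Radiation under 1D11 gave 0.04 ± 0.10 (95% interval -0.17 to 0.24). The call of radiation against control was lost without any 1 of 10 tumors, at limma adjusted p up to 0.135, among them control replicate 1 (-0.35, limma adjusted p = 0.0653). It was kept without control replicate 3 or 1D11_radiation replicate 2. The call of 1D11_radiation against control was lost without control replicate 1 or any single 1D11_radiation tumor, at limma adjusted p of 0.0588 to 0.0977. A second, dimmer Cspg4 probe set differed: it was at 5.56 to 6.13 in radiation tumors and 5.80 to 6.01 in 1D11_radiation tumors, below the 6.25 to 6.34 of 1D11 tumors. On that probe set the fall relative to controls was -1.03 (limma adjusted p = 0.0416), and over both antibodies it was -0.71 (limma adjusted p = 0.0237), against -0.20 on the brighter probe set (limma adjusted p = 0.0893).

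**Figure D3:**
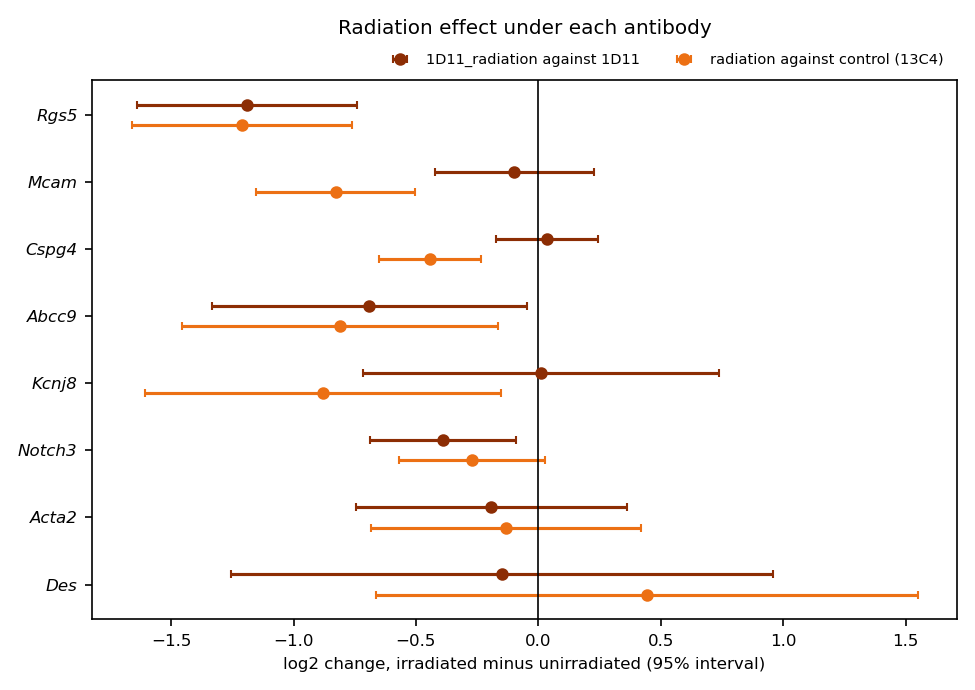
Log2 change from radiation (horizontal axis, with 95% intervals from limma, n = 3 tumors per group) of the 8 members tested, under 1D11 (dark points) and under 13C4 (orange points). The Rgs5 changes of -1.19 and -1.21 nearly coincide, while Mcam, Cspg4 and Kcnj8 have changes of -0.10, 0.04 and 0.01 under 1D11 and of -0.83, -0.44 and -0.88 under 13C4, and no interaction passed the adjusted test.

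Abcc9 and Kcnj8 encode the subunits SUR2 and Kir6.1 of the ATP-sensitive potassium channel of mural cells, and the genes neighbour each other on chromosome 6. Abcc9 was at 6.24, 6.43 and 6.76 in radiation tumors, against 6.78, 7.60 and 7.48 in controls. It was at 5.88, 7.07 and 6.02 in 1D11_radiation tumors, against 7.10, 6.91 and 7.02 in 1D11 tumors. The first comparison had no overlap, and in the second 1D11_radiation replicate 2 lay among the unirradiated tumors. Its change was -0.81 ± 0.29 under 13C4 (limma adjusted p = 0.171) and -0.69 ± 0.29 under 1D11 (limma adjusted p = 0.288). Over both antibodies it was -0.75 ± 0.21, which narrowly missed the threshold at a limma adjusted p of 0.0524. It passed without control replicate 1 (-0.88, limma adjusted p = 0.0254), radiation replicate 3 (-0.82, 0.0469) or 1D11_radiation replicate 2 (-0.94, 0.0101).

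Kcnj8 varied most among the controls of the pericyte genes. It was at 5.41, 5.90 and 5.59 in radiation tumors, against 5.68, 6.93 and 6.93 in controls, where the low value belongs to control replicate 1. Its change of -0.88 ± 0.33 did not pass (limma adjusted p = 0.186). Without that control it was -1.30 ± 0.25 and passed (limma adjusted p = 0.0275). Over both antibodies its change was -0.43 ± 0.23 (limma adjusted p = 0.291), and -0.64 ± 0.17 without control replicate 1, where it passed (limma adjusted p = 0.0462). In the other pair Kcnj8 was at 5.73, 6.49 and 6.19 in 1D11_radiation tumors, against 6.58, 5.79 and 6.01 in 1D11 tumors, with overlap and a change of 0.01 ± 0.33. The interaction was 0.89 ± 0.47 (limma adjusted p = 0.743), or 1.31 ± 0.34 without control replicate 1 (limma adjusted p = 0.168). The pancreatic and neuronal type of the channel is built from Kcnj11 and Abcc8. Kcnj11 had a change of -0.02 over both antibodies (limma adjusted p = 0.890), and Abcc8 was too dim to be tested.

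Notch3, the Notch receptor of smooth muscle and pericytes, was at 6.46, 6.46 and 6.54 in radiation tumors, against 6.66, 6.80 and 6.82 in controls. It was at 6.37, 6.57 and 5.96 in 1D11_radiation tumors, against 6.88, 6.57 and 6.62 in 1D11 tumors. As with Rgs5, the 6 irradiated tumors lay below the 6 unirradiated ones, although 1D11_radiation replicate 2 and 1D11 replicate 2 both round to 6.57. Rgs5 and Notch3 were the 2 of the 8 members with no overlap over both antibodies, where 2.41% of all genes tested were lower with no overlap. Its change over both antibodies was -0.33 ± 0.10 (limma adjusted p = 0.0614), with -0.27 ± 0.14 under 13C4 and -0.39 ± 0.14 under 1D11, and none passed. Without 1D11_radiation replicate 2 it was -0.40 over both antibodies and passed (limma adjusted p = 0.0284). No overlap over both antibodies entails no overlap under 1D11, so Rgs5 and Notch3 there are not a further result. No other member lacked overlap under 1D11, which makes 2 of 8, against 16.5% of all genes. No member was called there, against 0.0785% of all genes. Over both antibodies 2 of the 8 members, Rgs5 and Mcam, were called, against 7.26% of all genes.

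Of the contractile and cytoskeletal members, Acta2 was at 10.75, 10.82 and 10.42 in radiation tumors, against 11.55, 10.53 and 10.31 in controls. It was at 10.61, 10.47 and 10.59 in 1D11_radiation tumors, against 10.59, 10.79 and 10.87 in 1D11 tumors. Both pairs overlapped. The radiation change was -0.13 ± 0.25 (95% interval -0.69 to 0.42, limma adjusted p = 0.828) and turned to 0.24 ± 0.13 without control replicate 1 (limma adjusted p = 0.321). Des was at 8.09, 8.31 and 8.66 in radiation tumors, against 9.35, 7.20 and 7.19 in controls, and at 7.55, 8.54 and 7.35 in 1D11_radiation tumors, against 7.73, 7.94 and 8.22 in 1D11 tumors. Its radiation change was 0.44 ± 0.50 under 13C4, with an interval of -0.66 to 1.55. Without control replicate 1 that change was 1.16 ± 0.30 (limma adjusted p = 0.0698). Over both antibodies Acta2 had -0.16 ± 0.18 and Des 0.15 ± 0.36, and without that tumor 0.03 ± 0.09 and 0.50 ± 0.20, none of which passed. Between radiation and control tumors, with all 12 in the fit, Des was the 1 member that ran above controls. All 17 tested skeletal muscle genes were higher too, with a median of 1.09 and no gene called. Without control replicate 1 all 17 were higher, with a median of 1.92 and 2 genes called. The skeletal muscle score was -0.13 to 1.91 in radiation tumors and -1.11 to 1.13 in controls. It was -1.27 to 0.45 in 1D11_radiation tumors and -0.24 to 0.20 in 1D11 tumors. The part of skeletal muscle RNA in the Des values was not tested.

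Myh11 was at 4.61 to 5.00 in radiation tumors and 4.68 to 4.86 in 1D11_radiation tumors, against 4.79 to 5.06 in 1D11 tumors. In the controls it was at 7.11, 4.84 and 4.83. Cnn1 was at 4.63 to 4.91 in radiation tumors and 4.74 to 4.84 in 1D11_radiation tumors, against 4.70 to 5.00 in 1D11 tumors and 6.62, 4.95 and 4.93 in controls. With the filter on dim genes removed, their changes between radiation and control were -0.80 ± 0.46 (limma adjusted p = 0.441) and -0.73 ± 0.34 (limma adjusted p = 0.333). The other controls of Myh11 lay within the range of the radiation tumors. Those of Cnn1 lay above all radiation and 1D11_radiation tumors, and within the range of the 1D11 tumors.

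**Figure D4:**
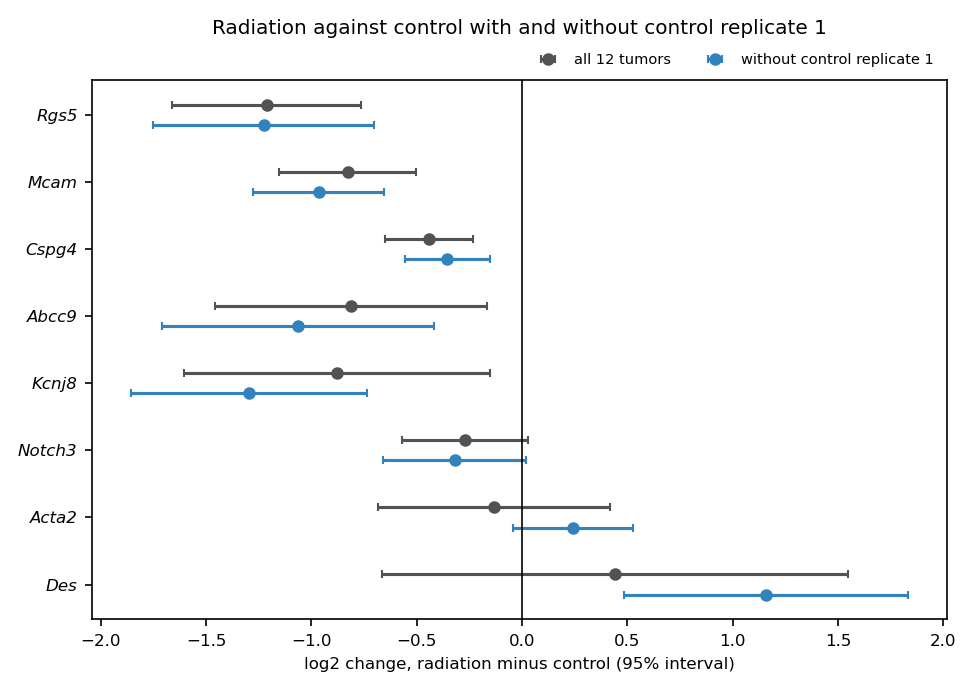
Log2 change of radiation against control tumors (horizontal axis, with 95% intervals from limma) of the 8 members tested, with all 12 tumors (grey) and without control replicate 1 (blue). Rgs5 stays near -1.2, Kcnj8 moves from -0.88 to -1.30, Acta2 from -0.13 to 0.24 and Des from 0.44 to 1.16.

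Neutralizing TGF-beta without radiation called no member at an adjusted p under 0.05. Values of Rgs5, Mcam and Cspg4 lay below all controls in 1D11 tumors, 3 of 8 members, where 6.95% of all genes did so and 0.0157% were called. The median change of the 8 was -0.30, against 0.04 for all genes tested. Rgs5 had -0.32 ± 0.20 (limma adjusted p = 0.503) and Mcam -0.41 ± 0.15 (0.263). Acta2, with -0.05 ± 0.25 (95% interval -0.60 to 0.50), lay at 10.59, 10.79 and 10.87 in 1D11 tumors, and without control replicate 1 its change was 0.33 ± 0.13 (limma adjusted p = 0.267). Kcnj8 had -0.39 ± 0.33 with that tumor and -0.80 ± 0.25 without it, Abcc9 -0.28 ± 0.29 and -0.53 ± 0.29, Notch3 -0.07 ± 0.14 and -0.12 ± 0.15, and Des 0.05 ± 0.50 and 0.77 ± 0.30. None of these passed, with or without it, and 6 of the 8 members were lower without it, against 7 with it. In irradiated tumors, 1D11_radiation against radiation, 0 of 8 members and 0% of all genes were called by limma, and Mcam had the smallest unadjusted p among the members, 0.0532, at 0.32 ± 0.15. No member was under an unadjusted p of 0.05 there. Over both radiation states, 1D11 against 13C4, 0 of 8 members were called, against 0.00785% of all genes. Cspg4 was the 1 member under an unadjusted p of 0.05 in that contrast (-0.29 ± 0.07, unadjusted p = 0.00133, limma adjusted p = 0.257). The interaction called 0 of 8 members and 0% of all genes. Mcam and Cspg4 (0.48 ± 0.13, unadjusted p = 0.00446) were the members under an unadjusted p of 0.05 for it. Without control replicate 1 the interaction of Des was -1.31 ± 0.41, against -0.59 ± 0.71 with all tumors, that of Acta2 was -0.44 ± 0.17, against -0.06 ± 0.36, and that of Abcc9 was 0.37 ± 0.39, against 0.12 ± 0.41, and again no member passed.

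In the comparison of both treatments with neither, 1D11_radiation against control, all 8 tested members were lower and 2 were called, Rgs5 and Cspg4, against 2.35% of all genes. Without control replicate 1, 6 of the 8 were lower and Rgs5 alone was called: Acta2 turned to 0.13 ± 0.13, against -0.24 ± 0.25 with all tumors, and Des to 0.62 ± 0.30, against -0.10 ± 0.50. Kcnj8 had -0.79 ± 0.25 without that tumor, against -0.38 ± 0.33 with it. No overlap was seen for 4 of the 8, Rgs5, Mcam, Cspg4 and Notch3, against 12% of all genes. Rgs5 fell by 1.51 ± 0.20 (limma adjusted p = 0.0104), and lost the call without 1D11_radiation replicate 3 (-1.35, limma adjusted p = 0.0501). Abcc9 had -0.97 ± 0.29 (limma adjusted p = 0.0961), Mcam -0.51 ± 0.15 (0.0855) and Notch3 -0.46 ± 0.14 (0.0891). The radiation and 1D11_radiation comparisons share the control tumors, so their values are given side by side and not as separate support.

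Among 19 further pericyte genes and ligands, 9 could be tested. Pdgfrb, the receptor of PDGF-B, fell and the laminin receptor subunit gene Itga7, also a muscle gene, rose; the other 7 did not pass. Pdgfrb was at 7.69, 7.30 and 7.26 in radiation tumors, against 10.22, 9.03 and 9.15 in controls. It was at 6.70, 7.69 and 6.89 in 1D11_radiation tumors, against 8.01, 7.65 and 8.27 in 1D11 tumors. Over both antibodies Pdgfrb fell by 1.47 ± 0.23 (limma adjusted p = 0.00720). Its change was -2.05 ± 0.32 under 13C4 (limma adjusted p = 0.0139). Under 1D11 it was -0.88 ± 0.32 and did not pass (limma adjusted p = 0.225), and there the groups overlapped. The interaction of Pdgfrb was 1.17 ± 0.46 (unadjusted p = 0.0270, limma adjusted p = 0.616). The 1D11 tumors lay below all controls, although that change did not pass (-1.49, limma adjusted p = 0.127), and they overlapped the irradiated tumors. Pdgfb, its endothelial ligand, had -0.31 ± 0.09 (limma adjusted p = 0.0626). Itga7 rose by 0.38 ± 0.08 (limma adjusted p = 0.0178). The median over the 9 was -0.06, against -0.01 for all genes.

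Of the 17 further contractile genes, 14 were tested. Over both antibodies Smtn, a smooth muscle cytoskeletal gene (0.33 ± 0.07, limma adjusted p = 0.0233), the tropomyosin gene Tpm2 (0.20 ± 0.05, 0.0271) and Pdlim7 (0.25 ± 0.06, 0.0343) rose in irradiated tumors, and 0 fell. Their median was -0.03, and 0.06 without control replicate 1, where Pdlim7 lost its call and 2 of the 3 passed. With all tumors, Tagln had -0.41 (limma adjusted p = 0.429) and the light chain gene Myl9 -0.35 (limma adjusted p = 0.417). Both genes were highest in control replicate 1. Tagln was at 9.02 there against 6.85 to 7.24 in the remaining tumors, and Myl9 at 8.17 against 6.24 to 7.25. Both changes include that tumor, their values without it are not given, and neither is read as a fall. None of the 14 was called between radiation and control by limma, with or without control replicate 1.

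In the Notch pathway 14 of 16 genes were tested. Over both antibodies the target gene Hey1 fell by 0.25 ± 0.06 (limma adjusted p = 0.0380) and the ligand gene Dll1 rose by 0.47 ± 0.12 (limma adjusted p = 0.0376). Hes1, another target, had -0.29 ± 0.08 (limma adjusted p = 0.0530), and Heyl, a target in mural cells, -0.12 (limma adjusted p = 0.439). No gene of the list was called between radiation and control, with a median of -0.19. Without control replicate 1, Hey1 (-0.46), Notch4 (-0.86) and Adam10 (-0.38) fell in that comparison, at limma adjusted p of 0.0185 to 0.0388. Over both antibodies without that tumor, 2 genes of the list were called lower and 0 higher, so Dll1 lost its call.

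Endothelial genes were lower beside the pericyte genes. Of 18 tested, 17 were lower in radiation tumors than in controls and 6 fell, at a median of -0.52, where 2.39% of all genes were called. Over both antibodies 5 fell, where 7.26% of all genes were called. Among them were Tek, the angiopoietin receptor (-0.70 ± 0.09, limma adjusted p = 0.00305), Sox18 (-0.52 ± 0.10) and Ecscr (-0.40 ± 0.08). Their score was -0.29 to -0.25 in radiation tumors and -0.11 to 0.48 in controls, and control replicate 1 was the lowest control. Without that tumor all 18 were lower and 12 fell between radiation and control, at a median of -0.65, and 12 fell over both antibodies, at -0.38. Of all genes, 3.42% and 7.62% were called in these 2 contrasts without it. Under 1D11 no endothelial gene was called by limma, where 0.0785% of all genes were, and 13 of the 18 were lower, at a median of -0.14. Tek had -0.74 ± 0.13 there (limma adjusted p = 0.0568), against -0.66 ± 0.13 under 13C4. Sox18 had -0.33 ± 0.14, against -0.72 ± 0.14, and Ecscr -0.14 ± 0.11, against -0.65 ± 0.11. The scores of -0.13 to 0.03 in 1D11_radiation tumors overlapped those of -0.09 to 0.22 in 1D11 tumors. The interaction was positive for 15 of the 18, at a median of 0.39, with no gene called. Without control replicate 1, 3 were called for it, against 0.165% of all genes. Under 1D11 without that tumor, 1 gene was called lower and 1 higher, against 1.78% of all genes. The part of a smaller vessel share in the marker values was not tested. Fibroblast genes had a median of -0.19 over both antibodies, with Pdgfra (-0.92 ± 0.10, limma adjusted p = 0.00178) and Col6a1 (-0.79 ± 0.20, 0.0359) called lower among 17. Col3a1 did not pass (-0.26 ± 0.07, limma adjusted p = 0.0590). Without control replicate 1 the fibroblast median over both antibodies was -0.16, and 1 gene of the 17 was called lower.

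The 10 markers had 21 probe sets. The 4 probe sets of Rgs5 fell in radiation tumors relative to controls by 0.62 to 1.21 on the log2 scale, at limma adjusted p of 0.0186 to 0.0372, each fitted in turn in place of the brightest. Over both antibodies they gave -1.20, -1.07, -0.89 and -0.58, from brightest to dimmest. The other 2 probe sets of Abcc9 had -0.27 and -0.12, smaller than the -0.75 of the brightest, and the second probe set of Notch3 had -0.09, against -0.33. Mcam, Kcnj8 and Cnn1 had 1 probe set each.

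**Figure D5:**
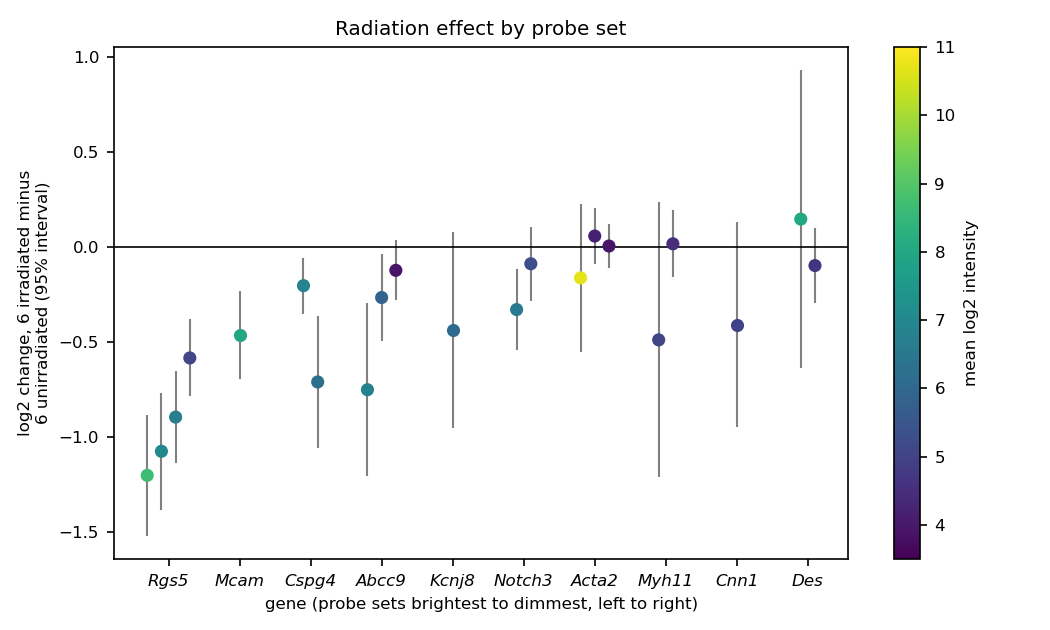
Log2 change over both antibodies, 6 irradiated minus 6 unirradiated tumors (vertical axis, with 95% intervals from limma), for the 21 probe sets of the 10 markers, colored by mean log2 intensity. All 4 Rgs5 probe sets lie between -1.20 and -0.58, and dimmer probe sets of Abcc9, Notch3 and Acta2 lie nearer 0 than the brightest.

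Genes most like Rgs5 were sought among the non-members tested, by Pearson r of log2 values over the 12 tumors. The closest 5 were Kansl1l, Spry1, Eva1b, Prrg2 and Igfbp7, at r from 0.936 to 0.945 and Spearman rho from 0.867 to 0.951. Without the pair of tumors farthest from the Rgs5 median r was 0.892 to 0.984. These points share the treatment groups, and the genes were picked for the largest r, so no p is given. Spry1, a feedback inhibitor of receptor tyrosine kinase signalling, was at 7.44 to 8.06 in radiation tumors, against 8.73 to 8.86 in controls, and at 7.50 to 8.02 in 1D11_radiation tumors, against 8.54 to 8.70 in 1D11 tumors. Igfbp7, a secreted binding protein of vessel walls, was at 9.98 to 10.36 in radiation tumors, against 10.50 to 11.08 in controls. The 5 genes most like Acta2 were Ndufb5, Ppargc1b, Grk3, Ints13 and Dcstamp, at r from 0.917 to 0.944. Without control replicate 1 these r were 0.692 to 0.794, so that their r is set in part by that tumor.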

How the data were processed

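The deposited values are intensity summaries per Affymetrix probe set on a linear scale, from 7.40 to 30800, per the file headers 1 column per array. The background correction, the normalization and the software behind them were not given in the sources used here, and array medians lay between 62.3 and 66.1, so the authors' values were taken as normalized and used as log2 intensity. Probe sets were named through GEO's platform annotation (34945 with a single symbol, 932 with several). The probe set with the highest mean stood for each of 18193 genes; the dimmest 30% of genes were left out, and 12735 were tested. limma 3.58.1 in R 4.3.3 (lmFit with 1 mean per group over 12 arrays, eBayes, 8 residual and 3.11 prior degrees of freedom) gave two-sided tests, adjusted by Benjamini-Hochberg over all genes tested; a call is an adjusted p under 0.05. The fit was tested on simulated data. Raw images were not used here, so signal over background is unknown, and 3 arrays per group limit the precision.

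The 10 members and all lists were chosen with earlier results of these data known. Genes named outside the members were the 3 with the smallest p per list over both antibodies, Pdgfrb, Pdgfb, Tagln, Myl9, Heyl, Kcnj11 and Abcc8, and the closest 5 to Rgs5 and Acta2; Acta2 stood in for Myh11, which was not tested. Notch4, Adam10, Actg2, Mylk and Mrtfa are named outside this rule. Deviations from the group means of same-numbered arrays had r of -0.31 to 0.27, over 0.1 in 3 of 18 pairs. The main fit therefore used no pairing by number, although such r cannot exclude one. No 2 arrays held the same values. A batch is not named in the labels.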

Additional observations from a re-analysis of the deposited data

How the results depend on the processing

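The number of members called in a contrast moved with several choices. For 1D11_radiation against 1D11, 0 were called, but 1, Rgs5, with the mean of probe sets, with the lowest 50% of genes left out, with an offset of 50, or without both control replicate 1 and radiation replicate 3, and 3 with array weights. For radiation against control, 3 were called, and 0 with only the 2 groups compared. For 1D11_radiation against control, 2 were called, and 1 with the replicate block or the keratinocyte score as a covariate, 0 with only the 2 groups compared, and 5 with array weights. With the lowest 50% of genes left out, 1 was called there, because 4 of the 8 members, Cspg4 among them, were then not tested. For the radiation main effect over both antibodies, 2 were called, and 1 with the keratinocyte covariate and 4 with array weights. The share of all genes called in that contrast was 7.26%, and 17.1% with array weights. Array weights raised the share of all genes in the other contrasts too. It went from 0.0785% to 11.7% for 1D11_radiation against 1D11 and from 2.35% to 7.25% for 1D11_radiation against control. With only the 2 groups compared, 6 genes of all tested were called for radiation against control, 119 for 1D11_radiation against 1D11 and 1 for 1D11_radiation against control, against 304, 10 and 299 with all 4 groups. With 1 tumor left out at a time, 0 to 3 members were called for radiation against control, 0 to 1 for 1D11_radiation against 1D11, 0 to 2 for 1D11_radiation against control and 1 to 4 for the radiation main effect. No member was called under any of these settings for 1D11 against control, 1D11_radiation against radiation, the interaction or the 1D11 main effect. No called member changed sign under any of them. With the replicate block, Cspg4 lost its calls of radiation against control and 1D11_radiation against control (adjusted p = 0.0703 and 0.0641), and no other member's call changed. The block left 206, 1 and 85 of all genes called for radiation against control, 1D11_radiation against 1D11 and 1D11_radiation against control. Quantile normalization, no filter and the skeletal muscle covariate moved no count of members by more than 1.5 times. Abcc9 passed over both antibodies with quantile normalization, the offset of 50, array weights or the skeletal muscle covariate (adjusted p = 0.0480, 0.0477, 0.00249 and 0.0446), as did Cspg4 with the mean of probe sets (0.0243). Without control replicate 1, 227 genes of all tested were called for 1D11_radiation against 1D11, 181 for 1D11_radiation against control and 21 each for 1D11 against control and the interaction, against 10, 299, 2 and 0 with all tumors. Apart from the members not tested with the lowest 50% left out, the causes of these changes were not tested. Leaving out an array leaves 2 in its group, whose spread is pooled with the other groups.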

Other observations

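Markers of other cells were read over both antibodies, 6 irradiated against 6 unirradiated tumors, with limma adjusted p over all genes tested. Of 9 leukocyte genes 7 were higher, at a median of 0.14, and the T cell receptor subunit gene Cd3d rose by 0.46 ± 0.09 (adjusted p = 0.0161). Itgam (0.21 ± 0.09, adjusted p = 0.192) and the lysozyme gene Lyz2 (-0.32 ± 0.10, adjusted p = 0.0849) did not pass. Of 4 nerve and glia genes, the myelin gene Pmp22 fell by 0.36 ± 0.08 (adjusted p = 0.0216), while Mbp (0.22 ± 0.08) and Erbb3 (0.14 ± 0.14) did not pass. The 4 keratinocyte genes tested had a median of -0.57 with none called. Krt14 was at 7.35 and 10.63 in 1D11 replicates 1 and 3, against 5.02 to 5.47 in the other 10 tumors. The 3 adipocyte genes had a median of -0.15 and the 9 stress genes 0.11, with none called; Adipoq had -0.45 ± 0.36 and Atf3 0.50 ± 0.15. The 17 skeletal muscle genes had a median of 0.27 with none called.

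In control replicate 1 the mural genes were mixed. Cspg4 was highest there of the 12 tumors, at 7.36, and so were 3 of the 9 other pericyte genes tested, against 16.1% of all genes tested. The score of those 9 was 0.35 in that tumor and -0.21 to 0.16 in the other 11. Kcnj8 and Abcc9 were lower in that tumor than in the other controls, at 5.68 and 6.78 against 6.93 and 7.48 to 7.60, while Pdgfrb was among the genes highest there, at 10.22 against 6.70 to 9.15 in the other 11.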
